A study of Oryza sativa with 25 samples.

Results

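Water channel genes of the rice plasma membrane and tonoplast were followed in 25 Affymetrix Rice Genome Arrays. There were 5 of them, out of 17905 genes with a probe set of their own, and they are read by 7 of the 57381 probe sets on the array. A probe set was taken where the array annotation gives it exactly 1 gene and that gene carries one of the names below as a symbol or synonym. OsPIP1;1 (LOC4330248), OsPIP1;2 (LOC9270874), OsPIP2;7 (LOC4347729) and OsTIP3 (LOC4348981, also named OsTIP3;1) are read by 1 probe set each, those of OsPIP2;7 and OsTIP3 with the suffixes _a_at and _s_at. OsPIP2;1 (LOC4343122) is read by 3, whose names end in S1_a_at, S1_x_at and S2_at, called S1_a, S1_x and S2 here and reported separately. A further 2 probe sets were left out because the annotation gives them a pair of genes, OsPIP2;1 and OsPIP2;5 in one case and OsTIP3 and LOC9266492 in the other.

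Aquaporins are membrane pores that let water, and in some families other small neutral molecules, pass along a gradient. Plasma membrane intrinsic proteins (PIPs) fall into a PIP1 and a PIP2 subgroup. In maize and other plants PIP2 proteins are strong water channels in frog oocytes, while PIP1 proteins often need a PIP2 partner to reach the cell surface. Tonoplast intrinsic proteins (TIPs) sit in the vacuole membrane, and the TIP3 subgroup is known from protein storage vacuoles of maturing seeds in Arabidopsis and bean.

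Growing callus was raised from seed for 3 weeks on MS medium at 30 °C. Regenerating callus had then been moved to regeneration medium for 2, 4, 6 or 8 days. Each of these 5 callus groups has 3 arrays, and callus of the same age without regeneration medium was not analysed here, so medium, transfer and culture age cannot be told apart. Whole roots taken while leaf 4 was growing (3 arrays) and blades of leaf 4, labelled young leaf (4 arrays), came from greenhouse plants, and shoots (3 arrays) from plants kept 4 weeks in a growth chamber at 30 °C, so organ and growing place differ together. The cultivar is not given in the sources used here. The labels call the samples of a group biological replicates, and growing callus, 2 days and 4 days each have 1 array, replicate 2, with an accidental excess of poly(A) control RNA.

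Values are the deposited hybridization intensities, in which the 75th percentile of every array is 1 and array medians run from 0.220 to 0.355. A value near or below those medians is written as low, since no detection call was used, and intensities of different probe sets were not set against each other. Unless stated otherwise, overlap of arrays and order of group means refer to deposited intensities. Log2 changes come from quantile normalised values, in which overlap can differ. Within groups, arrays correlated at 0.964 to 0.989 over the probe sets tested. Summed marker lists were highest in the organ they name: the intensity of 4 green tissue genes was 472 to 649 in young leaf and 162 to 168 in shoot against 2.91 to 3.10 in root, and that of 4 shoot meristem genes 19.6 to 26.3 in shoot and at most 3.45 elsewhere. That of 6 root genes, of 10 names asked for, was 156 to 159 in root and at most 9.71 elsewhere, but 1 gene, OsLsi1, itself an aquaporin (OsNIP2;1), gave 149 of it on average. The root genes OsSHR1 and OsSCR1 were lower in root than in growing callus, at means of 0.877 against 4.45 and 0.449 against 0.718. A single limma fit of log2 values over all 25 arrays gave each change with its standard error (SE) and its p-value, adjusted by Benjamini-Hochberg over the 37212 probe sets tested. A change was called, and is written as rose or fell, at an adjusted p under 0.05 and at least 2-fold. In whole organs and callus, fewer cells of a type and less RNA per cell cannot be told apart.

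**Figure D1:**
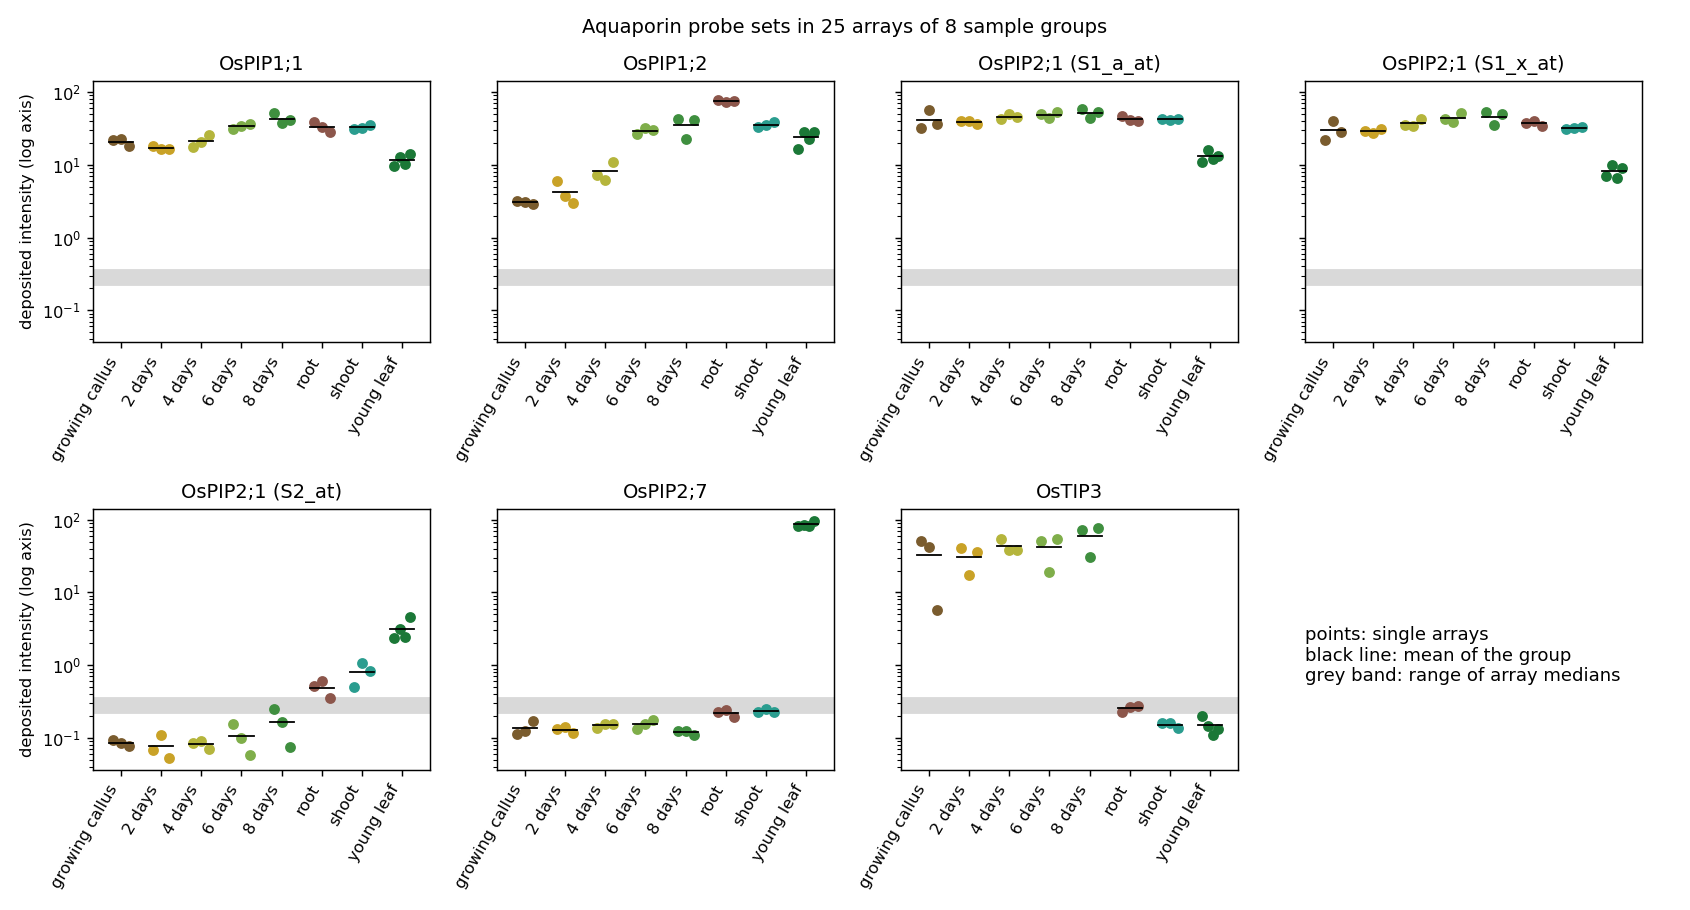
Deposited intensity (log axis) of the 7 aquaporin probe sets in each of the 25 arrays, by sample group, where points are arrays, black lines are group means and the grey band is the range of array medians. OsPIP1;2 climbs through the callus groups and is highest in root, OsPIP2;7 stands above the band in young leaf alone, OsTIP3 stands above it in callus alone, and the S2 probe set is highest where S1_a and S1_x are lowest.

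Among the PIP1 genes, OsPIP1;2 rose in callus on regeneration medium. Its intensities in growing callus were 3.15, 3.07 and 2.92, in callus after 2 days 5.93, 3.75 and 2.94, and after 4 days 7.26, 6.27 and 10.9. After 6 days the arrays read 26.3, 32.2 and 29.6, and after 8 days 41.9, 22.7 and 41.6. Growing callus and 2 days overlapped, while every array from 4 days on lay above growing callus and every array at 6 and 8 days lay above all those at 4 days. The group means were 3.04 ± 0.118 (SD, n = 3) in growing callus, 8.15 ± 2.45 at 4 days, 29.4 ± 2.97 at 6 days and 35.4 ± 11 at 8 days.

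On the log2 scale the gene differed from growing callus by 0.43 at 2 days (SE 0.251, limma adjusted p = 0.337), which was not called. It rose by 1.40 at 4 days (SE 0.251, adjusted p = 0.000513), by 3.42 at 6 days (adjusted p = 4.54e-09) and by 3.57 at 8 days (adjusted p = 1.34e-09), the last a ratio of mean intensities of 11.6. Most of this lay in 1 step: from 4 to 6 days it rose by 2.02 (adjusted p = 5.4e-05), from 2 to 4 days the change was 0.97 (unadjusted p = 0.00082, adjusted p = 1) and from 6 to 8 days 0.15 (95% interval -0.37 to 0.67, adjusted p = 0.979). The linear trend over 2 to 8 days was 0.57 per day (SE 0.0397, adjusted p = 2.05e-09).

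OsPIP1;1, the other PIP1 member, moved less and was called later. It read 21.8, 22.5 and 17.9 in growing callus, 18.2, 16.5 and 16.6 after 2 days and 17.4, 20.2 and 25.6 after 4 days. After 6 days it read 31.1, 34.0 and 35.8, and after 8 days 50.6, 37.0 and 41.6. The first 3 groups overlapped in part, and every array at 6 and 8 days lay above every earlier one. It rose by 1.19 on the log2 scale at 8 days against growing callus (SE 0.154, adjusted p = 6.56e-06), from 20.7 ± 2.48 to 43.1 ± 6.95 (SD, n = 3 each). At 6 days the change of 0.90 (adjusted p = 0.000241) stayed under 2-fold and was not called. As for OsPIP1;2, the largest step was from 4 to 6 days, at 0.81 (limma adjusted p = 0.00397), also under 2-fold and not called. Its trend over 2 to 8 days was 0.25 per day (SE 0.0244, adjusted p = 2.11e-07), which is over 2-fold across the 6 days and was called.

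The marker lists moved in callus over the same days. Summed intensity of the green tissue genes was 2.04 to 2.35 in growing callus, 9.62 to 17.4 at 6 days and 12.8 to 16.5 at 8 days, and that of the shoot meristem genes 1.54 to 1.77, 1.68 to 3.22 and 2.54 to 3.07. The sum of 7 cell division genes was 34.7 to 46.1 in growing callus, 52.2 to 74.2 at 2 days and 25.0 to 36.6 at 8 days, with growing callus and 8 days overlapping. That of the root genes was 4.92 to 8.83 in growing callus and 2.40 to 3.08 at 8 days. In callus this sum mostly followed OsSHR1, with means of 4.45 and 1.33, a gene lower in root than in growing callus. OsLsi1, which made up most of the sum in root, had means of 0.489 and 0.590, so the sum is no measure of root tissue here. Of the names asked for, 6 of 9 green tissue, 4 of 5 shoot meristem and 6 of 6 cell division names had a probe set. The part of these tissues in the PIP1 changes was not tested.

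**Figure D2:**
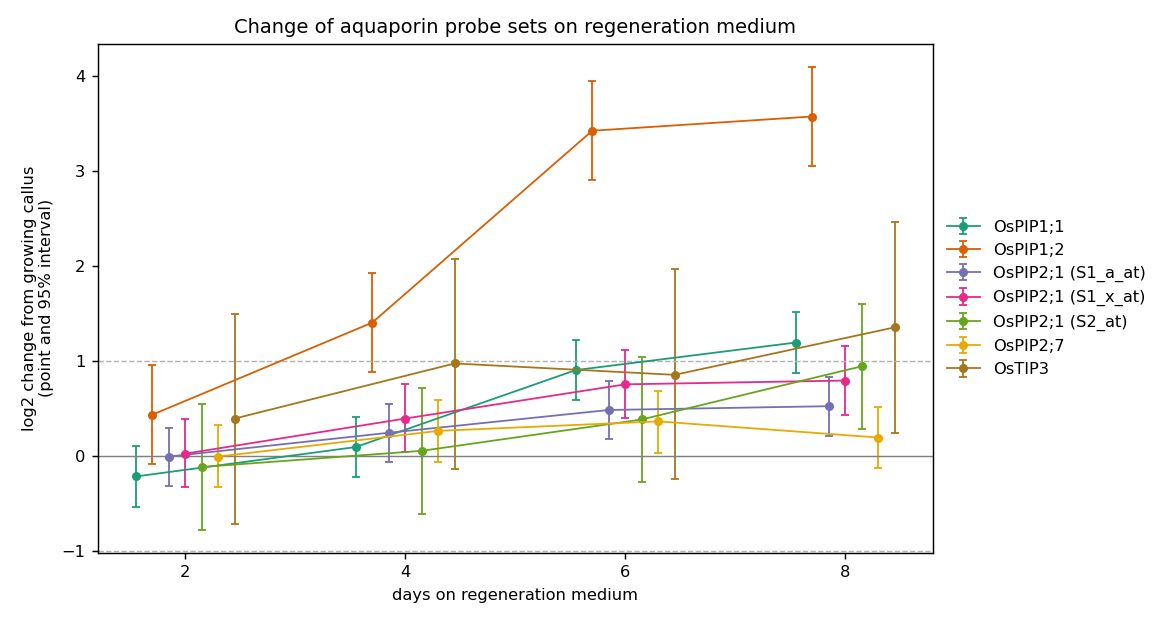
Log2 change from growing callus (points) with its 95% interval (bars) for the 7 aquaporin probe sets at 2, 4, 6 and 8 days on regeneration medium, from 1 fit over 25 arrays, where points of a day are set side by side to keep the bars apart. OsPIP1;2 reaches 3.42 at 6 days and 3.57 at 8 days, OsPIP1;1 reaches 1.19, and the widest bars belong to OsTIP3.

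In the organs OsPIP1;2 was highest in root and OsPIP1;1 lowest in young leaf. The former read 78.2, 72.7 and 74.8 in root, 33.5, 35.3 and 38.2 in shoot, and 16.6, 28.6, 22.9 and 28.4 in young leaf. These 3 groups did not overlap. In order of means root (75.2 ± 2.74) stood first, and shoot, 8 days, 6 days and young leaf followed, each overlapping the next. Callus at 4 days stood below them without overlap, and 2 days and growing callus came last, overlapping each other. The gene was lower in young leaf than root by a log2 change of -1.75 (SE 0.235, adjusted p = 7.17e-07), and lower in growing callus than root by -4.64 (adjusted p = 3.42e-13), a ratio of means of 24.7 in favour of root. At 8 days the remaining difference from root was -1.07 (SE 0.251, adjusted p = 0.000755), a call lost without 8 days replicate 2 (-0.78), with arrays centred on their median (-0.97) and with array weights (-0.92). Shoot against root gave -0.84 (adjusted p = 0.00655), under 2-fold and not called, and on the values as deposited it was -1.08 and called. Growing callus was also lower than shoot (-3.80, adjusted p = 1.66e-11) and than young leaf (-2.89, adjusted p = 1.56e-10). At 8 days the change against shoot was -0.23 (95% interval -0.75 to 0.29) and against young leaf 0.68 (0.20 to 1.17), neither called and both with overlapping arrays.

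OsPIP1;1 read 38.7, 32.5 and 28.3 in root, 31.2, 31.8 and 35.7 in shoot, and 9.75, 13, 10.3 and 14.1 in young leaf. Young leaf lay below every array of every other group, and root and shoot overlapped. It was lower in young leaf than root by a log2 change of -1.59 (SE 0.144, adjusted p = 1.24e-09) and higher in shoot than young leaf by 1.81 (adjusted p = 1.4e-10). Growing callus against root gave -0.76 (adjusted p = 0.000181) and against shoot -0.97 (adjusted p = 1.45e-05), neither called because both were under 2-fold. The latter was called when growing callus replicate 1 or 2 or shoot replicate 1 or 2 was left out, with changes down to -1.04. Callus at 8 days was higher than young leaf by 2.03 (adjusted p = 1.7e-11). That group, with the highest mean, did not overlap 6 days, next in the order, but the change of 0.29 between them was not called (adjusted p = 0.825).

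Among the PIP2 members, the 3 probe sets of OsPIP2;1 gave opposite organ patterns. In the annotation S1_a and S1_x come from the same source record and S2 from another. In the manufacturer's naming an _x_at probe set holds probes that are also close to other sequences, an _a_at set is meant to read several transcripts of 1 gene and an _s_at set several genes, so S1_x and the OsTIP3 probe set may include signal from relatives. In the RefSeq gene order OsPIP2;1 lies next to OsPIP2;5, with a pseudogene and OsPIP2;4 beyond it.

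S1_a read 46.8, 41.5 and 39.7 in root, 42.2, 41.4 and 42.0 in shoot, and 11, 16.2, 12.1 and 13.3 in young leaf. S1_x read 37.5, 40.6 and 33.6 in root, 31.2, 32.0 and 33.4 in shoot, and 7.07, 9.88, 6.51 and 8.99 in young leaf. In both probe sets young leaf lay below every other array of the series. The S2 probe set read 0.514, 0.612 and 0.355 in root, 0.502, 1.08 and 0.841 in shoot, and 2.39, 3.13, 2.42 and 4.60 in young leaf. There young leaf lay above every other array and root and shoot overlapped.

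Young leaf against root was thus called lower in S1_a (log2 -1.82, SE 0.138, adjusted p = 5.66e-11) and in S1_x (-2.31, SE 0.161, adjusted p = 1.04e-11), and higher in S2 (2.78, SE 0.298, adjusted p = 2.16e-08). Shoot against young leaf showed the same split, with 1.98 in S1_a, 2.33 in S1_x and -1.86 in S2, all called (adjusted p = 1.31e-11, 1e-11 and 9.26e-06). Across the 8 group means on the log2 scale, S1_a and S1_x correlated at 0.996, and S2 correlated with them at -0.682 and -0.673. This is a description over 8 points from shared arrays.

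**Figure D3:**
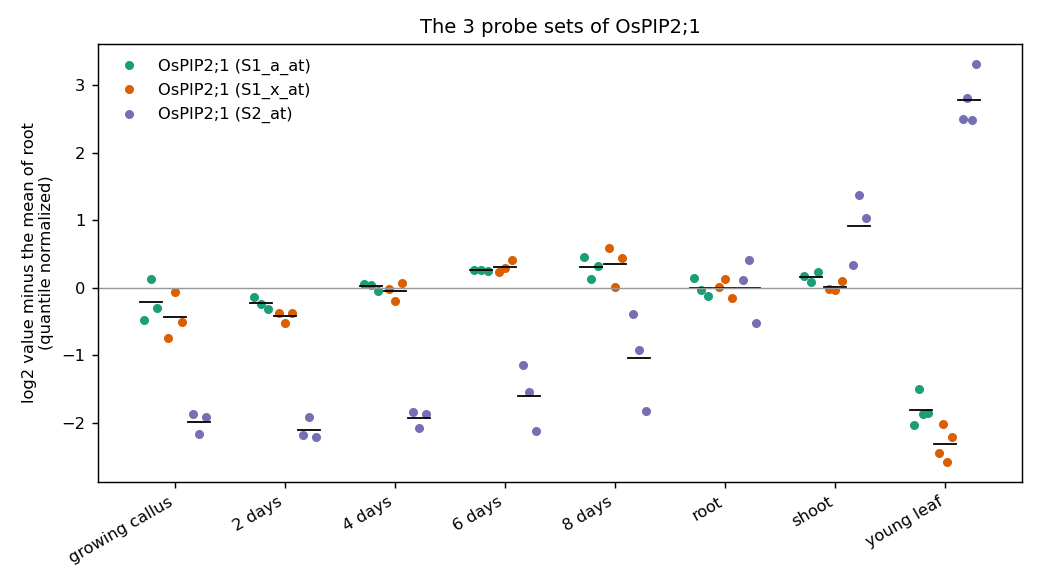
Log2 value minus the mean of root (quantile normalised) for the 3 probe sets of OsPIP2;1 in each of the 25 arrays, by sample group, where points are arrays and black lines group means. S1_a and S1_x lie nearer to root in callus and shoot than in young leaf, where they fall below it (-1.82 and -2.31 in the fit). S2 lies below root in callus and above it in young leaf (2.78).

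In growing callus and at 8 days S1_a and S1_x differed from root and shoot by less than 2-fold, with no change called. At 8 days every deposited value of both lay above every shoot array, at ratios of means of 1.24 and 1.43. After quantile normalisation the arrays overlapped, and the log2 changes were 0.14 and 0.33 (limma adjusted p = 0.476 and 0.125). S1_a read 31.9, 55.7 and 36.8 in growing callus and 57.6, 44.0 and 53.9 at 8 days. S1_x read 22.2, 40.1 and 28.2 in growing callus and 53.5, 35.3 and 49.2 at 8 days. Growing callus overlapped 8 days in both, with replicate 2 of growing callus the highest of its group in both. Their changes at 8 days were 0.52 (95% interval 0.21 to 0.83, adjusted p = 0.0139) and 0.79 (0.43 to 1.15, adjusted p = 0.00181), under 2-fold and not called. In between, S1_a ran from 36.3 to 52.6 and S1_x from 27.6 to 51.1 over the 9 arrays of 2, 4 and 6 days. At 6 days their changes from growing callus were 0.48 and 0.75 (limma adjusted p = 0.0317 and 0.00371). Their trends over 2 to 8 days were upward, at 0.09 and 0.13 per day (limma adjusted p = 0.00753 and 0.00129). These changes and trends were under 2-fold and not called. Against young leaf, growing callus was higher by 1.60 in S1_a and 1.87 in S1_x, and callus at 8 days by 2.12 and 2.66, all 4 called (adjusted p from 8.82e-13 to 4.6e-10). Neighbours in the order of group means overlapped except at young leaf, last in both, and, for S1_x, between 4 days and shoot.

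S2 was low in callus, at 0.0766 to 0.0952 in growing callus, 0.0533 to 0.111 at 2 days and 0.0714 to 0.0901 at 4 days. It read 0.158, 0.0988 and 0.0580 at 6 days and 0.249, 0.165 and 0.0763 at 8 days. All but 1 of these 15 values lay below the median of their own array, and S2 was tested because the organ arrays passed the filter. The change of 0.94 at 8 days (SE 0.319, adjusted p = 0.0382) was under 2-fold and not called, but it was called without 8 days replicate 3 (1.33, adjusted p = 0.00515) and with the smaller pseudocount (1.12, adjusted p = 0.0286). The trend of 0.18 per day (adjusted p = 0.0171) was called. It missed the call without 8 days replicate 1 (0.13 per day, adjusted p = 0.124), without any of 3 other arrays (2 days replicate 3, 6 days replicate 1 and 8 days replicate 2, at 0.16 to 0.17). It also missed it with the larger pseudocount (0.10 per day, adjusted p = 0.0602), on the values as deposited (0.13), with arrays centred on their median (0.13) and with array weights (0.12). Against root, S2 was lower in growing callus by -1.98 (adjusted p = 9.98e-06, and -1.30 with the larger pseudocount, also called) and lower at 8 days by -1.05 (adjusted p = 0.00661). The latter call was lost without 8 days replicate 3 (-0.65), root replicate 1 (-0.99) or root replicate 2 (-0.84), and with the larger pseudocount (-0.74). Growing callus lay below shoot by -2.90 (adjusted p = 7.4e-08) and below young leaf by -4.76 (adjusted p = 1.43e-12), and callus at 8 days by -1.96 and -3.83 (adjusted p = 2.53e-05 and 8.88e-11).

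OsPIP2;7 stood out in young leaf, at 81.0, 85.6, 82.7 and 97.1. Elsewhere it was low: 0.229, 0.244 and 0.196 in root, 0.225, 0.250 and 0.226 in shoot, and 0.109 to 0.174 over the 15 callus arrays. Young leaf lay far above every other array, and its 4 arrays were the ones in which the probe set passed the median of its array. It was higher in young leaf than root by a log2 change of 8.74 (SE 0.146, adjusted p = 1.16e-21), a ratio of means of 388. Shoot minus young leaf gave -8.20 (adjusted p = 1.71e-21) and growing callus minus young leaf -9.06 (adjusted p = 2.68e-22). Against values this low the size of a change depends on the pseudocount: young leaf minus root ran from 8.09 to 8.94 over the alternatives. The shoot to root change of 0.54 (adjusted p = 0.00491) was under 2-fold. Deposited values of these groups overlapped, at a ratio of means of 1.05, while the quantile normalised values did not. No callus change of the gene was called in the fit, and the largest from growing callus was 0.36 at 6 days (adjusted p = 0.139).

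Young leaf was also the group with the highest sum of green tissue genes, 472 to 649. The sum was 162 to 168 in shoot, and the gene was at 0.225 to 0.250 there. Most of the shoot sum came from the probe sets of CAB2R (means of 86 and 43.8) and PETE (23.5). Other genes of the list were far lower in shoot than in young leaf. The highest OsRBCS probe set had means of 1.48 in shoot and 88 in young leaf. Those of OsRCAA1 had means of 1.57 to 2.52 in shoot and 15.6 to 19.4 in young leaf. The part of green tissue in the young leaf excess of the aquaporin gene was not tested.

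OsTIP3, the tonoplast member, stood above the array median in all 15 callus arrays and below it in all 10 organ arrays. It read 51.2, 42.0 and 5.79 in growing callus, 40.3, 17.5 and 35.5 at 2 days, 54.8, 38.7 and 38.1 at 4 days, 51.1, 19.1 and 54.3 at 6 days, and 71.5, 30.9 and 76.9 at 8 days. In the organs it read 0.227, 0.266 and 0.279 in root, 0.159, 0.162 and 0.138 in shoot, and 0.203, 0.148, 0.111 and 0.133 in young leaf. Every callus array lay above every organ array, and the spread among callus arrays of a group was wide, with replicate 3 of growing callus the lowest of the 15.

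Growing callus was higher in OsTIP3 than root by a log2 change of 6.62 (SE 0.534, adjusted p = 2.83e-10), than shoot by 6.79 (adjusted p = 3.21e-10) and than young leaf by 7.05 (adjusted p = 1.32e-11). At 8 days the same changes were 7.98, 8.14 and 8.41, all called. Young leaf minus root was -0.43 (95% interval -1.46 to 0.60, adjusted p = 0.48), at values where both were low. Neighbouring callus groups all overlapped in the order of means.

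No change of OsTIP3 within callus was called in the fit. At 8 days the change from growing callus was 1.35 (SE 0.534, adjusted p = 0.0761), with means of 59.8 ± 25.1 and 33.0 ± 24 (SD, n = 3 each). Single arrays decided its size: without growing callus replicate 3 it was 0.37 (adjusted p = 0.571). Without growing callus replicate 1, growing callus replicate 2 or 8 days replicate 2 it was 1.93, 1.75 and 1.74 and was called (adjusted p = 0.0143, 0.0427 and 0.0351). It was also called without the 3 arrays of excess poly(A) controls (1.74, adjusted p = 0.0455) and with array weights (1.45, adjusted p = 0.0226). In a limma fit of the compared groups only, the change of 1.35 was further from a call (adjusted p = 0.266). The same held without 8 days replicate 1 (1.18, limma adjusted p = 0.216) or replicate 3 (1.14, adjusted p = 0.226).

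Seed maturation genes stood beside OsTIP3 in the same arrays. In growing callus replicates 1, 2 and 3, EM, which encodes a late embryogenesis protein, read 66.1, 28.4 and 1.05, the dehydrin gene RAB21 92.3, 21.7 and 0.982, and OsLEA3, another late embryogenesis gene, 42.2, 19.9 and 6.81. At 8 days EM read 154, 78.5 and 147 and RAB21 208, 86.2 and 216, with replicate 2 the lowest, as for OsTIP3. The summed intensity of the 4 seed and embryo genes found, of 8 names asked for, ran from 9.39 to 249 in growing callus, 177 to 287 at 2 days, 234 to 397 at 4 days, 146 to 428 at 6 days and 250 to 557 at 8 days, and was at most 15.6 in the organs. The storage protein gene GluA1 in that list was low in every callus array, at most 0.129. The callus had been raised from seed, and the part of seed-derived tissue in the OsTIP3 values was not tested.

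**Figure D4:**
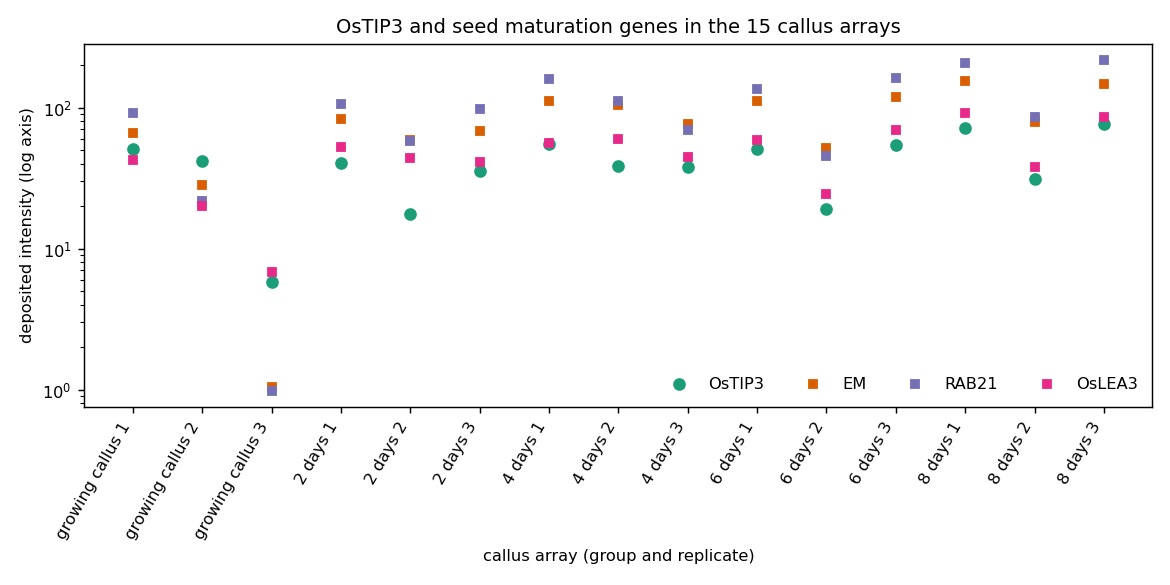
Deposited intensity (log axis) of OsTIP3 (circles) and of the seed maturation genes EM, RAB21 and OsLEA3 (squares) in each of the 15 callus arrays. Replicate 3 of growing callus is the lowest array for all 4, at 5.79 for OsTIP3, 1.05 for EM, 0.982 for RAB21 and 6.81 for OsLEA3, and heights of different genes are not comparable.

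Calls were also counted over the comparisons, beside the share of all probe sets called. Of the 7 probe sets, all tested, 0 were called at 2 days against growing callus (limma, with 0 at an unadjusted p under 0.05), where 4.08% of all probe sets tested were called. At 4 and 6 days 1 rose, OsPIP1;2, where 2.14% and 3.71% of all probe sets were called higher, and at 8 days 2 rose, where 5.06% were. From 4 to 6 days 1 rose, beside 1.55% of all. From 2 to 4 and from 6 to 8 days 0 were called in limma, with 2 and 0 at an unadjusted p under 0.05, and 0.00537% of all were called in either step. The trend over 2 to 8 days was called upward in 3, beside 4.70% of all, and downward in 0, beside 1.11%.

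In the organs calls were common in general, so the members' counts are read against high backgrounds. Young leaf against root gave 2 probe sets higher and 4 lower, where 15.5% of all were called higher and 16.6% lower. Shoot against root gave 0 called members in limma, with 3 at an unadjusted p under 0.05, although 29.0% of all probe sets were called. Shoot against young leaf gave 3 higher and 2 lower, beside 16.5% and 15.0%.

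Growing callus gave 1 member probe set higher and 2 lower than root (background 17.9% and 16.0%), 1 higher and 2 lower than shoot (10.2% and 11.8%), and 3 higher and 3 lower than young leaf (19.6% and 17.4%). Callus at 8 days gave 1 higher and 2 lower than root (18.1% and 15.4%), 1 higher and 1 lower than shoot (8.81% and 9.77%), and 4 higher and 2 lower than young leaf (18.8% and 16.3%). Comparisons with a shared group use the same arrays. S2, OsPIP2;7 and OsTIP3 reached the test through the groups where they are high (OsTIP3 through the 15 callus arrays), so their calls between those groups and the others carry that choice and are read as descriptions.

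Members differed from each other in how they changed during regeneration. For each of the 21 pairs of probe sets the log2 difference between the members was compared between the 6 arrays of 6 and 8 days and the 6 arrays of 2 and 4 days with a two-sided exact permutation test over 924 splits, in which 0.00216 is the smallest p possible. The late minus early change was 2.58 for OsPIP1;2, 1.11 for OsPIP1;1, 0.69 for S2, 0.56 for S1_x, 0.43 for OsTIP3, 0.39 for S1_a and 0.15 for OsPIP2;7. After Benjamini-Hochberg adjustment over the 21 pairs, 10 differed. All 6 pairs of OsPIP1;2 with another probe set did (each exact p = 0.00216, adjusted p = 0.00505), among them the pair with OsPIP1;1, which changed by 1.47 less. OsPIP1;1 also changed more than S1_a (by 0.72), S1_x (by 0.55) and OsPIP2;7 (by 0.96), each at an exact adjusted p = 0.00505. The remaining pair called was S1_x over OsPIP2;7 (0.41, exact adjusted p = 0.00909). The cut between 4 and 6 days is also where OsPIP1;2 and OsPIP1;1 had their largest steps. Their pairs thus restate those steps and are no independent support. The probe sets of OsPIP2;1 enter as separate pairs although they read the same gene. OsPIP2;7 lay above the array median in 0 and S2 in 1 of these 12 arrays, and a log2 change is compressed at such low values, so the 4 called pairs with S2 or OsPIP2;7 say little of those 2 probe sets. OsTIP3 and OsPIP1;1 differed by -0.68 (exact adjusted p = 0.14), and S1_a and S1_x by -0.18 (exact adjusted p = 0.0868).

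The wider aquaporin family was read through 25 genes with a probe set of their own, of 29 in the gene table. Of these, 24 were tested with 1 probe set each, 19 of them besides the 5 members. Where a gene had several, the probe set with the highest mean log2 value over all arrays was used, S1_a for OsPIP2;1. The shares over all probe sets were taken without such a choice. Counts of rising genes among the 24 were 1, 3, 10 and 12 after 2, 4, 6 and 8 days against growing callus, beside 1.65%, 2.14%, 3.71% and 5.06% called higher among all probe sets, and 0 fell at any of these times, beside 2.43%, 3.10%, 2.38% and 2.79% called lower. The list's median log2 changes were 0.13, 0.19, 0.88 and 1.14, beside 0.01, 0.02, -0.02 and -0.05 over all probe sets tested. When 1 array was left out, the counts called ran from 0 to 2 at 2 days, 3 to 4 at 4 days, 7 to 11 at 6 days and 9 to 13 at 8 days. From 4 to 6 days 5 rose and 0 fell, beside 1.55% and 0.0403% of all, with a median of 0.58 beside -0.05.

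Besides the members, the largest rises at 8 days were those of OsPIP2;2 (log2 2.94, SE 0.573, adjusted p = 0.000655), OsPIP1;3 (2.79, SE 0.70, adjusted p = 0.00574) and the tonoplast gene OsTIP1;1 (2.57, SE 0.403, adjusted p = 6.44e-05). OsPIP2;2 went from 0.218 ± 0.0291 (SD, n = 3) in growing callus to 2.19 ± 1.65 at 8 days, against 33.1 ± 2.19 in root. A second probe set of OsPIP2;2 was low in both, at 0.114 and 0.130, against 1.15 in root. OsPIP1;3 was low in growing callus, at 0.221 ± 0.0797, and varied widely at 8 days, at 2.09 ± 1.86 (arrays from 0.792 to 4.22). OsTIP1;1 went from 10.7 ± 6.38 to 55.9 ± 18.9, against 104 ± 18.6 in root. Chosen after its values were seen, OsTIP3;2, the other TIP3 gene, was the 1 gene called at 2 days (1.31, SE 0.322, adjusted p = 0.00919). It stood at 0.439 ± 0.141 in growing callus, 1.24 ± 0.628 at 2 days and 0.961 ± 0.131 at 8 days, and between 0.208 and 0.237 on average in root, shoot and young leaf.

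In young leaf against root 3 of the 24 family genes were higher and 11 lower, beside 15.5% and 16.6% of all, with a median of -0.77 beside -0.02 over all probe sets. OsPIP2;1 was among the lower through S1_a (-1.82), while its S2 was called higher (2.78). OsTIP4;1 (3.50, adjusted p = 1.98e-10) and OsTIP1;2 (3.23, adjusted p = 1.85e-10) were higher in young leaf, beside OsPIP2;7. A second probe set of OsTIP4;1 was low in both organs, at 0.294 in young leaf and 0.174 in root. The largest deficits were those of OsTIP2;1 (-7.95, SE 0.751, adjusted p = 2.52e-09), OsNIP2;1 (-6.47, SE 0.398, adjusted p = 1.15e-12), the silicon influx channel Lsi1 of the root, and OsPIP2;4 (-5.00, SE 0.387, adjusted p = 7.6e-11). OsNIP2;1 stood at 149 ± 2.12 (SD, n = 3) in root and 1.77 ± 0.579 (n = 4) in young leaf. Shoot against root gave 3 family genes higher and 7 lower, none of them a member, beside 15.5% and 13.5% of all, and shoot against young leaf 7 higher and 5 lower, beside 16.5% and 15.0%.

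**Figure D5:**
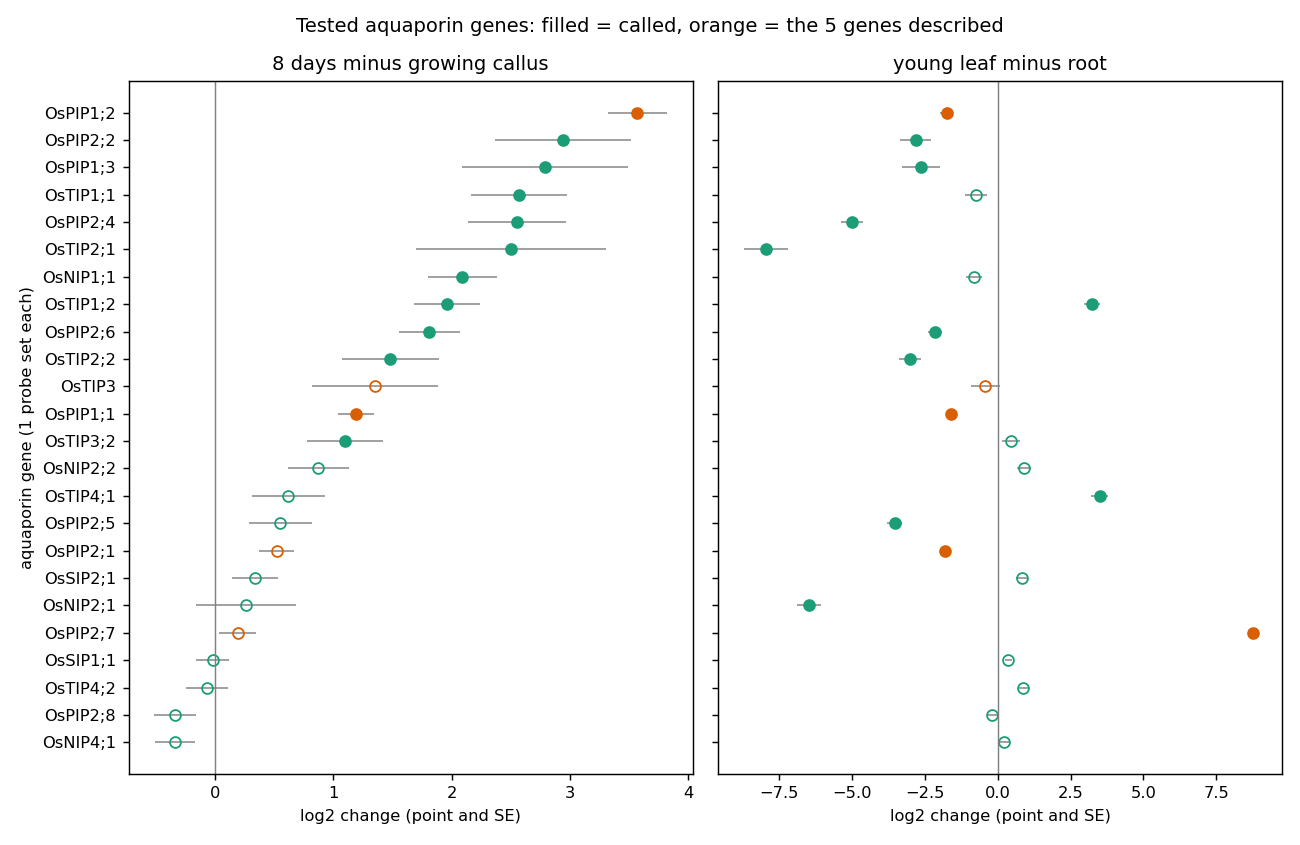
Log2 change with its SE for the 24 tested aquaporin genes, 1 probe set each, at 8 days against growing callus (left) and in young leaf against root (right), where filled circles were called and orange marks the 5 genes described. On the left 12 genes are filled, all to the right of 0, with values up to 3.57, and on the right values run from -7.95 to 8.74.

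The genes whose 8 group means ran most like those of each member were named by Pearson correlation on the log2 scale among 2912 to 2914 named single-gene probe sets, as a description over 8 groups from the same arrays. For OsPIP1;2 they were both probe sets of OsTIP1;1 (0.970 and 0.959) and OsCslH1, a cellulose synthase-like gene (0.946). For OsPIP1;1 they were the transcription factor gene OsbZIP02 (0.964), the glycolytic gene GAPC (0.957) and PLA2-III (0.957). For S1_a they were the beta-tubulin genes RTUB-2 (0.964) and OsTUB6 (0.964) and OsSPPL1 (0.962), and for S1_x OsHMA4 (0.959), GSK1 (0.953) and OsSPPL1 (0.951).

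S2 ran with OsNPR3 (0.995), OsTIP4;1 (0.993) and the homeobox gene OsHox15 (0.988). OsPIP2;7 ran with FBPase, which encodes fructose-1,6-bisphosphatase (0.997), OsCEST (0.996) and PPE (0.996). OsTIP3 ran with the alpha-amylase gene AMY1.4 (0.999), the floral MADS-box gene OsMADS1 (0.994) and OsVP1, a transcription factor gene of seed maturation (0.993). The lists of S1_a and S1_x shared OsSPPL1, and neither shared a gene with the list of S2. Among the members themselves the highest correlation besides S1_a with S1_x was that of OsPIP1;1 with S1_x (0.862), and the lowest was that of S1_a with OsPIP2;7 (-0.940). OsPIP2;7 was low in every group but young leaf, so its correlations, with members and with other genes, rest mainly on that group. OsTIP3 was low in every organ and high in every callus group, so its correlations rest mainly on that contrast. Those of S2, low in callus, rest mainly on the organs.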

How the data were processed

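Each of the 25 arrays received 500 ng of total RNA. The deposited values are intensities on a linear scale, 1 per probe set and array, scaled by the authors to a 75th percentile of 1, as the values show. The submitters' processing notes name GCOS 1.3, and background and summary steps are not given in the sources used here. From the deposited intensities log2(value + 0.0274) was computed, the addend being 10% of the median of all values (0.274). The 187 control probe sets were removed, and arrays were quantile normalised because their medians differed by 1.61 times, over the limit of 1.5. A probe set was tested if 3 or more arrays held it above their own median (37212). limma 3.58.1 in R 4.3.3 fitted a mean per group, with 17 residual and 5.40 prior degrees of freedom. Calls needed an adjusted p under 0.05 and 2-fold, for the trend over its 6 days. The fit was tested on simulated data. The number of arrays limits the precision.

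The members, gene lists and comparisons were chosen with earlier results of these data known. All member probe sets are named. Other aquaporins are named where called and among the 3 largest rises or falls at 8 days or between young leaf and root, and the 3 most alike named genes per member, a name being a symbol or synonym that is no locus number. Names came from the platform annotation and the RefSeq gene table (assembly ASM3414082v1), which has no sequence here, so none is printed, and 22436 probe sets have 1 gene, 95 several and 34850 none. 3 genes whose synonym resembles an aquaporin name but which carry another gene's symbol (OsbHLH142, FLO6 and OsHsf-25) were left out of the family. Alternatives changed the pseudocount (50%, called the larger, or 1% of the median), the scaling, the filter, the arrays fitted, a replicate block and array weights, and left out each array in turn.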

Additional observations from a re-analysis of the deposited data

How the results depend on the processing

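The 35 alternatives kept 39 of the 42 called member changes in direction and call, and the others were OsPIP1;2 at 8 days against root (-0.97 with arrays centred on their median, -0.92 with array weights) and S2 of OsPIP2;1 for the trend and at 8 days against root (0.13 per day as deposited or centred, 0.12 with array weights, and -0.74 with the larger pseudocount). Of the uncalled changes 20 turned sign somewhere and none of the called did. On the values as deposited these were S1_x (-0.0031) at 2 days, S2 at 4 days (-0.05), OsPIP2;7 at 8 days (-0.15) and per day (-0.01), and, in shoot against root, S1_a (-0.02), S1_x (-0.21) and OsPIP1;1 (-0.0022). With centred arrays they were S1_x at 2 days (-0.01) and in shoot against root (-0.04), S2 at 4 days (-0.05), OsPIP2;7 at 8 days (-0.15), from 4 to 6 days (-0.0063) and per day (-0.02), and S1_a in growing callus against root (0.10). With array weights they were OsPIP2;7 at 2 days (0.06) and from 4 to 6 days (-7.8e-06) and OsTIP3 from 4 to 6 days (0.05), and without the arrays of excess poly(A) controls S1_a at 2 days (0.16). Leaving out 1 array gave, against growing callus, ranges of -0.0091 to 0.17 for OsPIP1;1 at 4 days, -0.15 to 0.16 for S1_a, -0.13 to 0.21 for S1_x and -0.12 to 0.21 for OsPIP2;7 at 2 days, -0.04 to 0.13 for S2 at 4 days, and for OsTIP3 -0.59 to 0.97 at 2, -0.01 to 1.54 at 4 and -0.13 to 1.43 at 6 days. It gave -0.34 to 0.34 for OsTIP3 from 4 to 6 days, -0.0073 to 0.44 for OsPIP1;2, -0.03 to 0.13 for S1_a and -0.08 to 0.20 for S1_x from 6 to 8 days, -0.39 to 0.06 for OsPIP1;2 at 8 days against shoot, and -0.06 to 0.08 for S1_x in shoot against root. Member counts moved to 1 in shoot against root as deposited (0 to 1 without 1 array), and the stricter filter (above the median in 12 arrays), which leaves S2 and OsPIP2;7 untested, gave 3 called in shoot against young leaf, 1 at 8 days against shoot and 6 pairs. The family count at 2 days was 0 in a fit of the compared groups only, 2 without the excess poly(A) arrays and 0 to 2 without 1 array, and at 6 days 6 in the fit of the compared groups only. Replicate numbers were not used as pairs in the main fit. Same-numbered arrays of different groups deviated together with a median correlation of 0.0139 (84 pairs, 17 over 0.1, the highest 0.39). For other numbers the median was -0.00108. Of the 25 arrays, 13 correlated best with an array of their own number in another group. Whether some same-numbered arrays share a batch was not tested further. With the replicate block no call changed, with 2 member probe sets called at 8 days against growing callus and 6 in young leaf against root. Other causes were not tested. Low values limit S2 in callus and OsPIP2;7 and OsTIP3 where they are low.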
